A study of Homo sapiens with 7 samples.

Results

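The genes of peptide transport, loading and trimming and of the immunoproteasome were followed in RH30 cells with and without the Smac mimetic BV6. They are TAP1, TAP2, TAPBP, ERAP1, ERAP2, LNPEP, PSMB8, PSMB9, PSMB10 and PSME1, chosen by name, and all 10 were found among the 57189 genes of the count table. All 10 were also among the 23124 genes with enough counts to be tested. RH30 is an established line of alveolar rhabdomyosarcoma, a soft tissue tumour with muscle features, and its RNA was sequenced as poly(A)-selected bulk libraries. There were 4 libraries of untreated cells and 3 of cells that had received 5 µM BV6 for 24 h. The labels give the genotype of every sample as wt and name no solvent for the untreated cells, while the methods of the study describe RH30 cells that carry GFP and luciferase. BV6 libraries 2, 3 and 4 each share a BC label with the untreated library of that number, and untreated library 1 has no partner. The study calls its RNA-seq samples biological replicates, but the labels do not say what the BC label marks or whether the libraries came from separate cultures, so the p-values measure the spread between these libraries, which may be partly technical. The labels name the same cell line throughout, and a pool of RNA does not tell fewer cells from less RNA per cell.

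MHC class I molecules show peptides from inside the cell to T cells and are read by inhibitory receptors of NK cells. The proteasome cuts proteins into peptides, and in cells that have met interferon its standard catalytic subunits are replaced by PSMB8, PSMB9 and PSMB10, which form the immunoproteasome, while the PA28 cap of PSME1 and PSME2 opens its gate. The TAP1 and TAP2 transporter moves peptides into the endoplasmic reticulum, tapasin (TAPBP) holds the empty class I molecule beside it, and the aminopeptidases ERAP1 and ERAP2 trim the peptides to fit. BV6 mimics Smac, a natural antagonist of the inhibitor of apoptosis proteins, and loss of cIAP1 and cIAP2 releases the NF-κB-inducing kinase and the non-canonical NF-κB pathway. Genes of antigen processing are known targets of interferon regulatory factors (IRF) and of NF-κB.

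Promoter windows of the 10 genes were taken from RefSeq (GRCh38.p14), from 250 bases before the start of the transcript to 30 bases after it. They numbered 15, as some genes have a further start. The windows of TAP1, TAPBP and ERAP1 are shown because these genes had the largest log2 fold changes among the transporter, loading and trimming genes. Those of TAP2 and PSMB9 are shown because TAP2 pairs with TAP1 in the transporter and PSMB9 lies back to back with TAP1. Over all 10 genes, PSMB9 had a slightly larger log2 fold change (0.82) than TAP1 (0.80). Capitals mark the letters of an IRF-type pair (GAAANNGAA on either strand), of an interferon-gamma activated site (GAS, TTCNNNGAA, which reads alike on both strands) or of an NF-κB site (by its usual consensus, either strand). Adjoining IRF-type pairs overlap and appear as a longer run. The TAP1 window lies at chr6:32853675-32853954 on the minus strand, the TAPBP window at chr6:33314049-33314328 on the minus strand, the ERAP1 window at chr5:96807916-96808195 on the minus strand, the TAP2 window at chr6:32838710-32838989 on the minus strand and the PSMB9 window at chr6:32853942-32854221 on the plus strand.
TAP1: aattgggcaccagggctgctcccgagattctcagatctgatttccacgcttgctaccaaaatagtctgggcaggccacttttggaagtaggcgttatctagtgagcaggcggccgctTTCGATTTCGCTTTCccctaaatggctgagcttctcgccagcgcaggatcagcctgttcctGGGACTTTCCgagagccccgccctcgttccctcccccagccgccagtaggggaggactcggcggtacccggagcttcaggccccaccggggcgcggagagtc
TAPBP: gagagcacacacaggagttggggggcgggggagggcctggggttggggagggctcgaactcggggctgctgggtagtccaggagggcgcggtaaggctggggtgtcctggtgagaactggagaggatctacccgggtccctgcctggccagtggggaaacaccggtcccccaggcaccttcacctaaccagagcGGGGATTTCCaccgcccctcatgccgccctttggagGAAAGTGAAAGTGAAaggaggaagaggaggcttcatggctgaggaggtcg
ERAP1: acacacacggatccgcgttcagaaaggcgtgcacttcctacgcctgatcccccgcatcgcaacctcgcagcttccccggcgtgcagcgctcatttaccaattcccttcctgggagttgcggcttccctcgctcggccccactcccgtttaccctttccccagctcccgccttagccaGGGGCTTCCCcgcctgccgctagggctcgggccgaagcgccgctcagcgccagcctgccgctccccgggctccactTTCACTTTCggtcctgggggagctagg
TAP2: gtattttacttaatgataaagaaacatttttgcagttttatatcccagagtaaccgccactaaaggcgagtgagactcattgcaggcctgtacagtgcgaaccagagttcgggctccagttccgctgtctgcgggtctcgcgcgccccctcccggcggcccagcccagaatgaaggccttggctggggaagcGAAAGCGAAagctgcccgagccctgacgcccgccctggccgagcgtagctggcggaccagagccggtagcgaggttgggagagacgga
PSMB9: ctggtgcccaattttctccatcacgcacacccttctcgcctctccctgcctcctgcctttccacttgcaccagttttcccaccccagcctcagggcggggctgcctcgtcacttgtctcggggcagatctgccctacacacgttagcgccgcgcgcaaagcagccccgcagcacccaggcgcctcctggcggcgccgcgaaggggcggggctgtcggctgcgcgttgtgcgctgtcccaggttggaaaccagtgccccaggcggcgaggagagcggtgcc

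The IRF-type letters stood in a window of 8 of the 10 genes, namely TAP1, TAP2, TAPBP, ERAP1, ERAP2, PSMB8, PSMB10 and PSME1, and in 7.65% of all 35116 promoter windows of the same length. By gene, 9.31% of the 27305 genes with a window held them. The NF-κB letters stood in a window of TAP1, TAPBP and ERAP1 and of none of the other 7 genes. Of all windows 5.60% held them, and of all genes with a window 6.73%. In TAP1 they spanned positions -72 to -63 from the start, in TAPBP -56 to -47 and in ERAP1 -73 to -64. The GAS letters were found for TAP1, LNPEP and PSMB8, each in its further window. They stood in 7.30% of all windows and for 8.95% of all genes with a window. The PSMB9 window held none of the letters searched, but its upstream end meets that of the TAP1 window. The IRF-type and NF-κB letters of TAP1 thus lie between the starts of both genes, further upstream of PSMB9 than its window reaches. The absence of letters for PSMB9 therefore holds for its window only, and whether PSMB9 shares those of TAP1 was not tested. A match is a description of the letters and was not tested as a binding site.

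In untreated RH30 cells all 10 genes were read well above the floor of 3 counts, which corresponds to 0.0389 to 0.0557 CPM by library (CPM are counts scaled to a normalized library of 1000000). Set on a scale per kb of exon, PSME1 stood apart with 73.3 ± 8.18 CPM per kb (SD, n = 4). TAPBP followed at 10.3 ± 0.971, TAP2 at 8.40 ± 0.699, ERAP1 at 7.91 ± 0.932, TAP1 at 6.34 ± 0.938 and LNPEP at 5.77 ± 0.643 CPM per kb. The lowest levels were those of ERAP2 at 3.47 ± 0.411, PSMB10 at 3.17 ± 0.875, PSMB8 at 2.77 ± 0.474 and PSMB9 at 2.67 ± 0.581 CPM per kb. Only the steps from PSME1 to TAPBP and from LNPEP to ERAP2 were free of overlap between neighbours in this order. The standard catalytic subunits were higher than the inducible ones on the same scale, with 78.6 ± 4.10 CPM per kb for PSMB5, 50.4 ± 1.17 for PSMB6 and 73.2 ± 3.29 for PSMB7. Exon lengths came from GENCODE 44 and may differ from the gene models behind the counts.

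With BV6, the trimming enzyme ERAP1 rose 2.29-fold, and TAP1, TAPBP and PSMB9 were 1.74-fold to 1.84-fold higher without passing the test adjusted over all genes. Of the 10 genes, 9 had a positive log2 fold change, and their median was 0.49, beside -0.01 for all 23124 genes tested. In the quasi-likelihood test of edgeR, adjusted after Benjamini and Hochberg over all genes, 1 of the 10 passed an adjusted p of 0.05, ERAP1, while 0.394% of all genes passed and were higher. With the shared BC label as a block, 3 of the 10 passed, TAP1, TAPBP and ERAP1, against 0.649% of all genes. Untreated library 1, alone with its label, adds nothing to the difference in a fit with the block, which rests on the 3 pairs. An unadjusted p under 0.05 was reached by 7 of the 10, all higher, while 954 of all 23124 genes were higher with such a p. Every BV6 library stood above every untreated library for 6 genes (TAP1, TAPBP, ERAP1, ERAP2, PSMB9 and PSME1), against 4.94% of all genes. By the DESeq2 Wald test 4 passed, the same 3 and PSMB9, against 0.972% of all genes. With a correction for GC content and the block, 6 passed, which added PSMB8, PSMB9 and PSME1, against 2.21% of the genes in that fit. Without BV6 library 3, TAPBP passed beside ERAP1, which makes 2 of the 10, while 80 of 23737 genes in that fit passed and were higher. TAPBP passed in only 1 of the 7 fits that left out 1 library. TAP1 passed in 0 of them, with adjusted p from 0.0811 to 0.286 in edgeR. All 7 of these fits were without the block, so calls made only with the block have no such check.

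**Figure D1:**
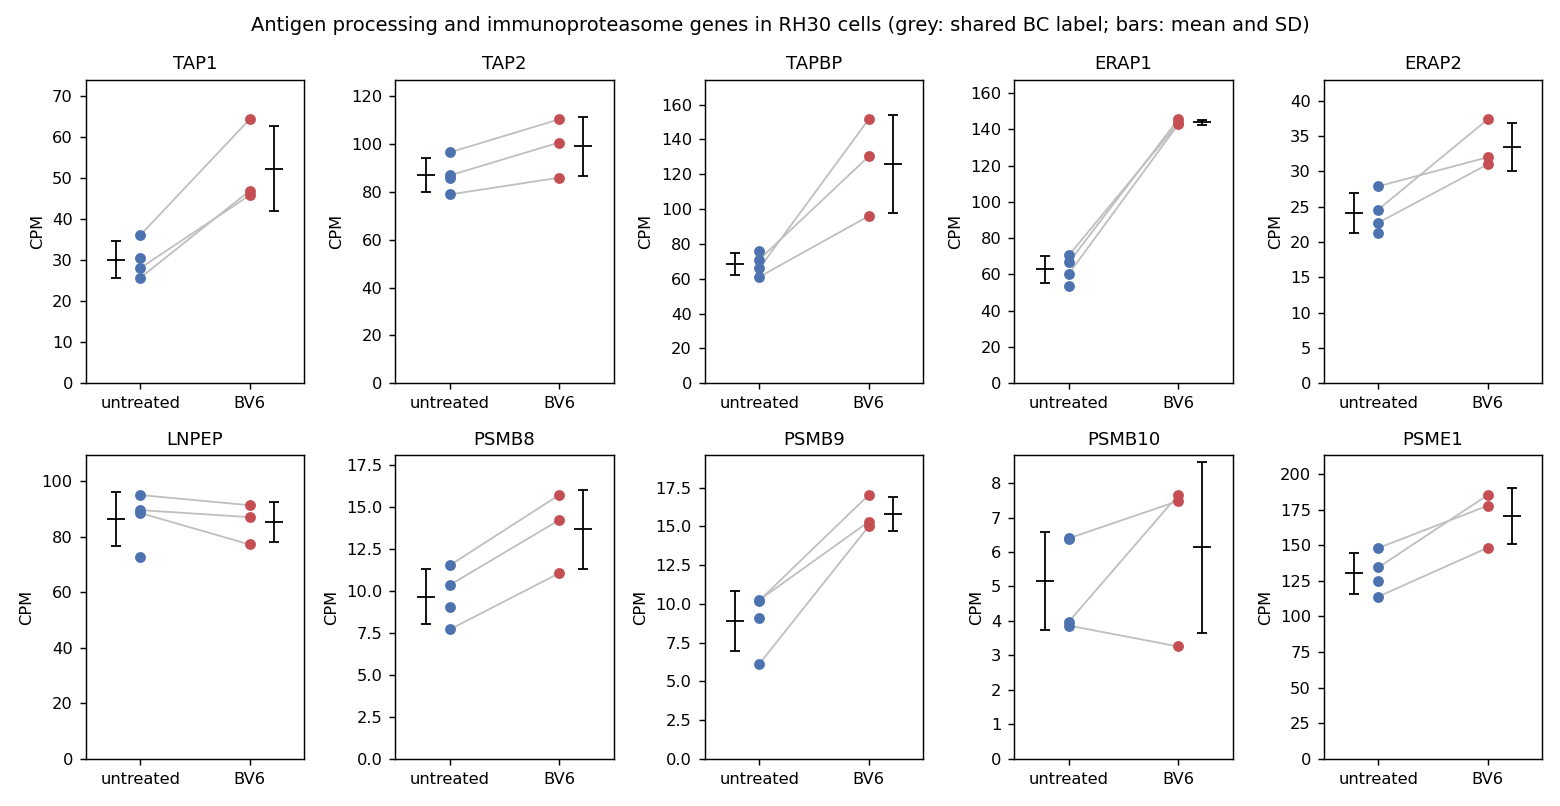
Level of each of the 10 genes in every library, in CPM on a linear axis from 0. Blue points are the 4 untreated libraries, red points the 3 BV6 libraries, grey lines join libraries with a shared BC label, and bars beside the points give the mean and SD. The BV6 libraries of ERAP1 lie between 143 and 146 CPM, all above the highest untreated library at 70.6, while those of LNPEP lie among the untreated ones.

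TAP1 forms the first chain of the peptide transporter. The untreated libraries 1 to 4 had 30.5, 25.7, 28.0 and 36.0 CPM, and BV6 libraries 2 to 4 had 46.8, 45.7 and 64.2 CPM. The groups did not overlap, and BV6 library 4 and its untreated partner were each the highest of their group. The log2 fold change was 0.80 ± 0.16 (SE), with an adjusted p of 0.0971 in edgeR without the block and 0.0141 with it (log2 fold change 0.80 ± 0.10). Within the pairs the log2 difference was 0.87, 0.71 and 0.83.

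TAP2 forms the other chain of the transporter. Its levels were 85.7, 96.5, 78.9 and 86.9 CPM in untreated libraries 1 to 4 and 110.3, 85.9 and 100.6 CPM in BV6 libraries 2 to 4. The groups overlapped, with BV6 library 3 within the untreated range, although each BV6 library was above its own partner. TAP2 had a log2 fold change of 0.19 ± 0.12 (SE), with an adjusted p of 0.730 in edgeR and 0.491 with the block. Per kb, TAP1 stood at 77.9%, 58.1%, 77.6% and 90.6% of TAP2 in the untreated libraries and at 92.8%, 116% and 140% in the BV6 libraries. The ratio was higher in every BV6 library than in any untreated one, with a mean log2 difference of 0.61. The level of such a ratio depends on the exon lengths used, here 4.74 kb for TAP1 and 10.36 kb for TAP2, while its change does not. In CPM, TAP1 was below TAP2 in every library. No test was run on ratios between genes.

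TAPBP encodes tapasin, the bridge between the transporter and the class I molecule. Untreated libraries 1 to 4 had 76.0, 71.0, 61.0 and 65.9 CPM, and BV6 libraries 2 to 4 had 130.2, 95.9 and 151.5 CPM. All BV6 libraries were above all untreated ones, with library 3 the lowest in both groups. TAPBP had a log2 fold change of 0.88 ± 0.15 (SE), with an adjusted p of 0.0519 in edgeR without the block and 0.0169 with it (log2 fold change 0.91 ± 0.12). Within the pairs the difference ranged from 0.65 to 1.20 on the log2 scale. Leaving out BV6 library 3 gave a log2 fold change of 1.04 and an adjusted p of 0.0101. The remaining fits that left out 1 library missed the threshold, with adjusted p of 0.107 to 0.188 in edgeR.

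ERAP1 trims peptides in the endoplasmic reticulum. It had 53.7, 70.6, 60.4 and 66.7 CPM in untreated libraries 1 to 4 and 143.5, 142.8 and 145.6 CPM in BV6 libraries 2 to 4. The BV6 libraries lay close together and far above every untreated library. The log2 fold change was 1.20 ± 0.11 (SE), with an adjusted p of 0.00349 in edgeR and 0.00374 with the block. ERAP1 passed in each of the 7 fits that left out 1 library, with log2 fold changes from 1.13 to 1.25. The 3 pairs gave log2 differences of 1.02, 1.24 and 1.13.

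ERAP2, the partner enzyme of ERAP1, had 21.3, 27.9, 24.6 and 22.7 CPM in untreated libraries 1 to 4 and 32.0, 37.4 and 31.0 CPM in BV6 libraries 2 to 4. Here too every BV6 library was above the untreated ones. The log2 fold change was 0.47 ± 0.13 (SE), with an adjusted p of 0.270 in edgeR and 0.208 with the block. LNPEP, which trims peptides in endosomes for cross-presentation and lies beside ERAP2 on chromosome 5, had 72.6, 88.5, 89.5 and 94.95 CPM in untreated libraries and 77.2, 87.0 and 91.3 CPM in BV6 libraries. The groups overlapped, and its log2 fold change was -0.02 ± 0.12 (SE), with an adjusted p of 0.974 in edgeR. Its sign turned to 0.028 without untreated library 4 and to 0.054 without BV6 library 2. Per kb, ERAP1 stood at 215% to 257% of ERAP2 in the untreated libraries and at 334% to 411% in the BV6 libraries. Against LNPEP it stood at 127% to 150% and at 300.5% to 350.2%, and neither ratio overlapped between the groups.

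The catalytic subunits of the immunoproteasome were all read at low levels. PSMB9 (LMP2), which takes the place of PSMB6, had 9.09, 6.13, 10.3 and 10.2 CPM in untreated libraries 1 to 4 and 15.0, 15.3 and 17.0 CPM in BV6 libraries 2 to 4. The groups did not overlap, and untreated library 2 was the lowest. Its log2 fold change was 0.82 ± 0.19 (SE), with an adjusted p of 0.150 in edgeR and 0.0667 with the block. PSMB8 (LMP7), which replaces PSMB5, had 9.02, 7.70, 10.3 and 11.5 CPM in untreated libraries and 11.0, 14.2 and 15.7 CPM in BV6 libraries. BV6 library 2 fell within the untreated range, yet each BV6 library was above its partner by 0.45 to 0.52 on the log2 scale. Its log2 fold change was 0.50 ± 0.18 (SE), with an adjusted p of 0.481 in edgeR and 0.161 with the block. PSMB10 (MECL-1), which replaces PSMB7, had 6.37, 6.40, 3.87 and 3.98 CPM in untreated libraries and 7.48, 3.26 and 7.65 CPM in BV6 libraries. Its pairs went in both directions, with log2 differences of 0.22, -0.24 and 0.94. The log2 fold change was 0.25 ± 0.32 (SE), with an adjusted p of 0.853 in edgeR. It was 0.56 without BV6 library 3 and 0.049 without BV6 library 4.

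PSME1, the alpha subunit of the PA28 cap, had 124.6, 113.9, 134.4 and 148.0 CPM in untreated libraries 1 to 4 and 148.2, 185.2 and 177.7 CPM in BV6 libraries 2 to 4. The groups just failed to overlap, with untreated library 4 and BV6 library 2 at nearly the same level. For PSME1 the log2 fold change was 0.39 ± 0.12 (SE), with an adjusted p of 0.369 in edgeR and 0.122 with the block. Its partner PSME2, the beta subunit, had 106.5, 109.6, 110.1 and 112.5 CPM in untreated libraries and 156.1, 168.1 and 153.8 CPM in BV6 libraries. PSME2 rose 1.45-fold (log2 fold change 0.54 ± 0.09, SE), with an adjusted p of 0.0368 in edgeR and 0.0385 with the block. This call was lost when any 1 of the 7 libraries was left out, with adjusted p from 0.106 to 0.168. Per kb, PSME1 stood at 210% to 265% of PSME2 in untreated and at 192% to 233% in BV6 libraries, which overlapped.

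**Figure D2:**
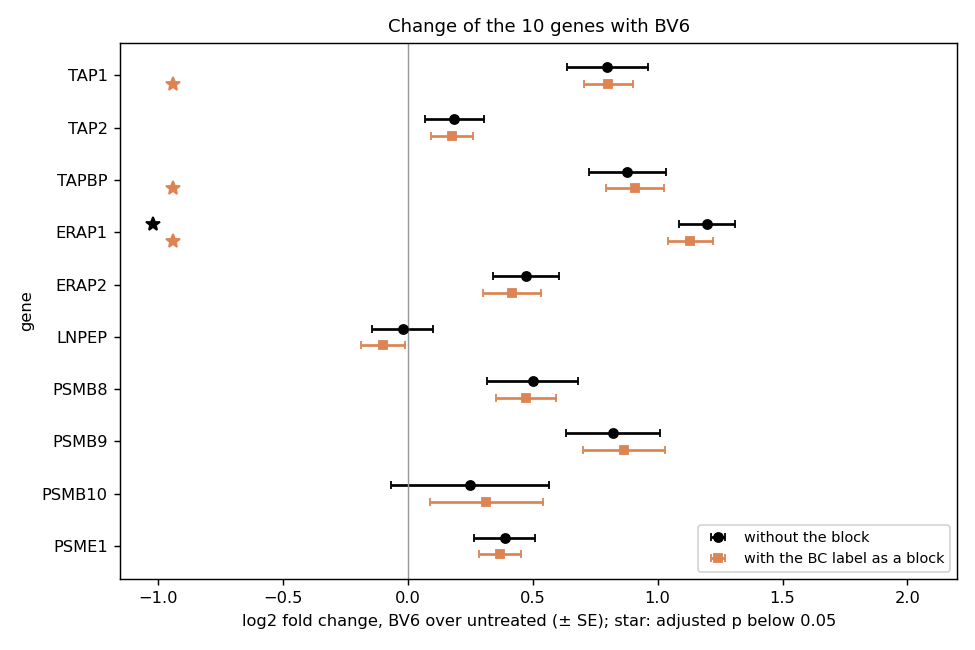
Log2 fold change of BV6 over untreated for the 10 genes, with bars of 1 SE. Black circles are the fit without the block and orange squares the fit with the BC label as a block, and a star at the left marks an adjusted p below 0.05. ERAP1 has a star in both fits, TAP1 and TAPBP with the block only, and LNPEP sits near zero.

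The standard catalytic subunits, which cut proteins in nearly all cells, served as the counterpart of the inducible ones. PSMB5 had a log2 fold change of -0.04 ± 0.10 (SE), PSMB6 of -0.02 ± 0.10 and PSMB7 of 0.18 ± 0.11, with adjusted p from 0.711 to 0.968 in edgeR. The sign of the first pair is not settled, as PSMB5 turned to 0.0043 without BV6 library 3 and PSMB6 to 0.0071 without BV6 library 3 and to 0.016 without BV6 library 4. Per kb, PSMB9 stood at 5.38%, 3.54%, 6.15% and 6.23% of PSMB6 in untreated libraries 1 to 4 and at 8.36%, 9.51% and 10.8% in BV6 libraries 2 to 4, with no overlap. PSMB8 stood at 2.66% to 4.08% of PSMB5 in untreated and at 3.77% to 6.17% in BV6 libraries, which overlapped, and the 3 pairs differed by 0.50, 0.50 and 0.59 on the log2 scale. PSMB10 stood at 3.16% to 5.67% of PSMB7 in untreated and at 2.34% to 6.56% in BV6 libraries. Each inducible transcript stayed below its standard counterpart in every library.

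**Figure D3:**
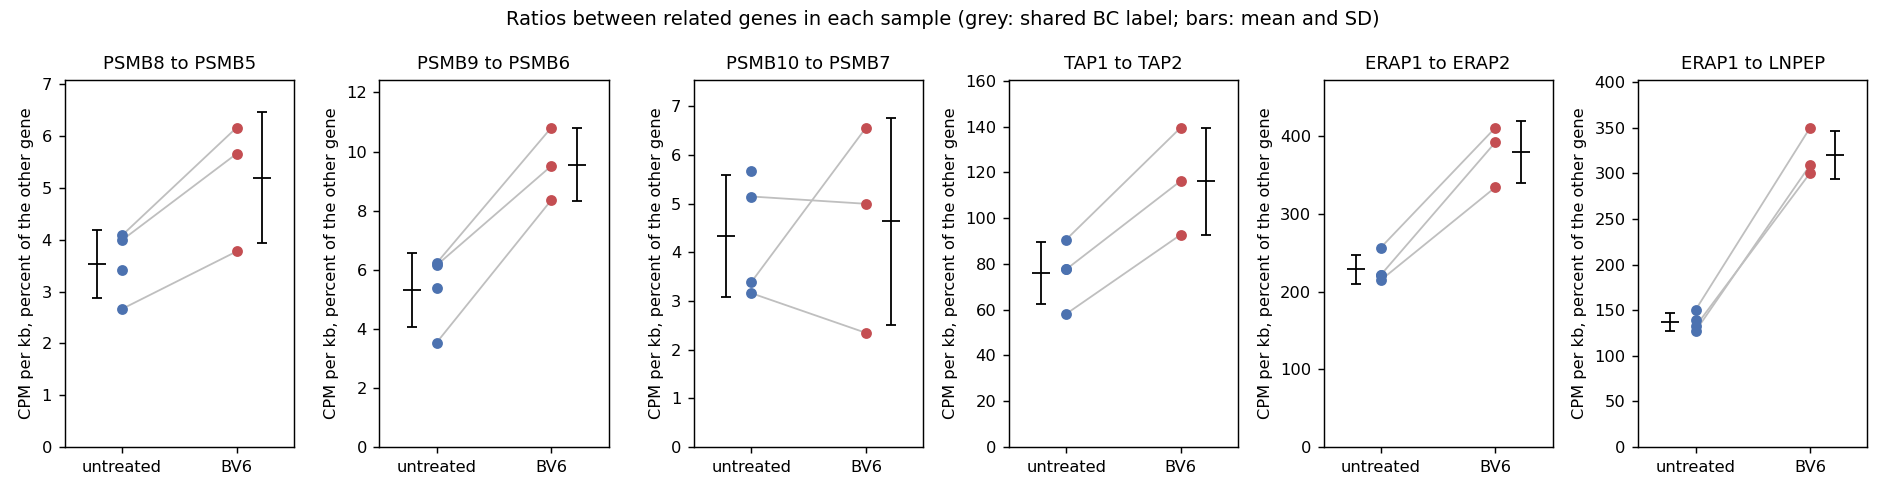
Ratio of each inducible subunit to the standard subunit it replaces, of TAP1 to TAP2 and of ERAP1 to ERAP2 and LNPEP, in every library. Values are CPM per kb of exon as a percent of the other gene, on linear axes from 0, and their level depends on the exon lengths used. Blue points are untreated and red points BV6 libraries, grey lines join a shared BC label, and bars give the mean and SD. The red points lie above all blue ones for PSMB9 to PSMB6, TAP1 to TAP2 and both ERAP1 ratios, and overlap them for PSMB8 and PSMB10.

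A hand-written list of 42 other genes of class I presentation gave the context. PSMB11, the thymus subunit, had too few counts, and of the 41 tested 27 had a positive and 14 a negative log2 fold change, with a median of 0.08. Of these, 3 passed in edgeR without the block, all higher (PSME2, IRF1 and NFKB2), while 0.394% of all genes passed and were higher. With the block 6 passed, which added RFX5, RELB and NFKB1, against 0.649% of all genes. IRF1, an activator of many genes of this pathway, had 17.6, 22.0, 14.9 and 15.5 CPM in untreated libraries 1 to 4 and 46.1, 34.2 and 30.2 CPM in BV6 libraries 2 to 4. It rose 2.11-fold (log2 fold change 1.07 ± 0.19, SE), with an adjusted p of 0.0478 in edgeR. NFKB2, the precursor of p52 in the non-canonical NF-κB pathway, had 93.8, 84.9, 56.2 and 74.6 CPM in untreated and 289.0, 176.0 and 272.4 CPM in BV6 libraries. It rose 3.18-fold (log2 fold change 1.67 ± 0.21, SE), with an adjusted p of 0.0110. IRF1 kept its call only without untreated library 2 (adjusted p 0.0408) among the fits that left out 1 library and reached 0.0594 to 0.168 in the other 6, and it missed the threshold with RLE size factors (0.0522). NFKB2 lost its call without untreated library 4 only (0.0536).

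The genes added by the block were RFX5, a factor that binds class I and class II promoters, with a log2 fold change of 0.53 ± 0.14 (SE) without the block and adjusted p of 0.209 without and 0.0493 with it in edgeR. RELB, the partner of p52, had 0.90 ± 0.36 with 0.556 and 0.0322, and NFKB1, the precursor of p50, had 0.60 ± 0.17 with 0.288 and 0.0454. IRF2, which shares its binding letters with IRF1, had 0.88 ± 0.17 with 0.0722 and 0.0660. IRF2 passed with no filter on low counts (adjusted p of 0.0218), with the GC correction (0.0231, and 0.00696 with the block) and with DESeq2 (0.000474, and 0.00135 with the block). NLRC5, the main coactivator of class I genes, had a log2 fold change of -0.05 ± 0.14 (SE) and changed sign between fits, at 0.027 with the GC correction, 0.017 with that and the block, and 0.087 without BV6 library 3. Of the 14 transcription factors on the list, 11 had a positive log2 fold change and 3 a negative one, with a median of 0.25. The 3 were NLRC5, RFXAP (-0.12 ± 0.18) and RFXANK (-0.18 ± 0.17). In edgeR 2 of the 14 passed without the block and 5 with it. Of all genes, 0.394% and 0.649% passed and were higher.

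Among the class I chains none of 7 passed in edgeR with or without the block, and 2 had an unadjusted p under 0.05, B2M and HLA-E, while 1939 of all 23124 genes had such a p in either direction. With the GC correction and the block, B2M (adjusted p of 0.00485), HLA-E (0.00454), HLA-B (0.0365) and HLA-C (0.0447) passed. In that fit 2.21% of all 17460 genes passed and were higher. B2M also passed with no filter on low counts (0.0410) and with DESeq2 (0.0423). B2M, the light chain, had 417.8, 471.5, 535.5 and 565.7 CPM in untreated libraries 1 to 4 and 642.3, 855.4 and 735.3 CPM in BV6 libraries 2 to 4. All BV6 libraries were above all untreated ones, with a log2 fold change of 0.58 ± 0.14 (SE) and an adjusted p of 0.162 in edgeR and 0.0537 with the block. HLA-E, the ligand of an inhibitory NK cell receptor, had a log2 fold change of 0.54 ± 0.14, with adjusted p of 0.216 and 0.0836. HLA-B and HLA-C, whose reads may be shared between near-identical genes, had 0.37 ± 0.20 and 0.18 ± 0.19. Without BV6 library 4 that of HLA-B was 0.088 and that of HLA-C turned to -0.11. None of the 6 other loading and folding genes passed, with a median log2 fold change of -0.13, and none of the 6 cytosolic peptidases, with a median of 0.04.

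**Figure D4:**
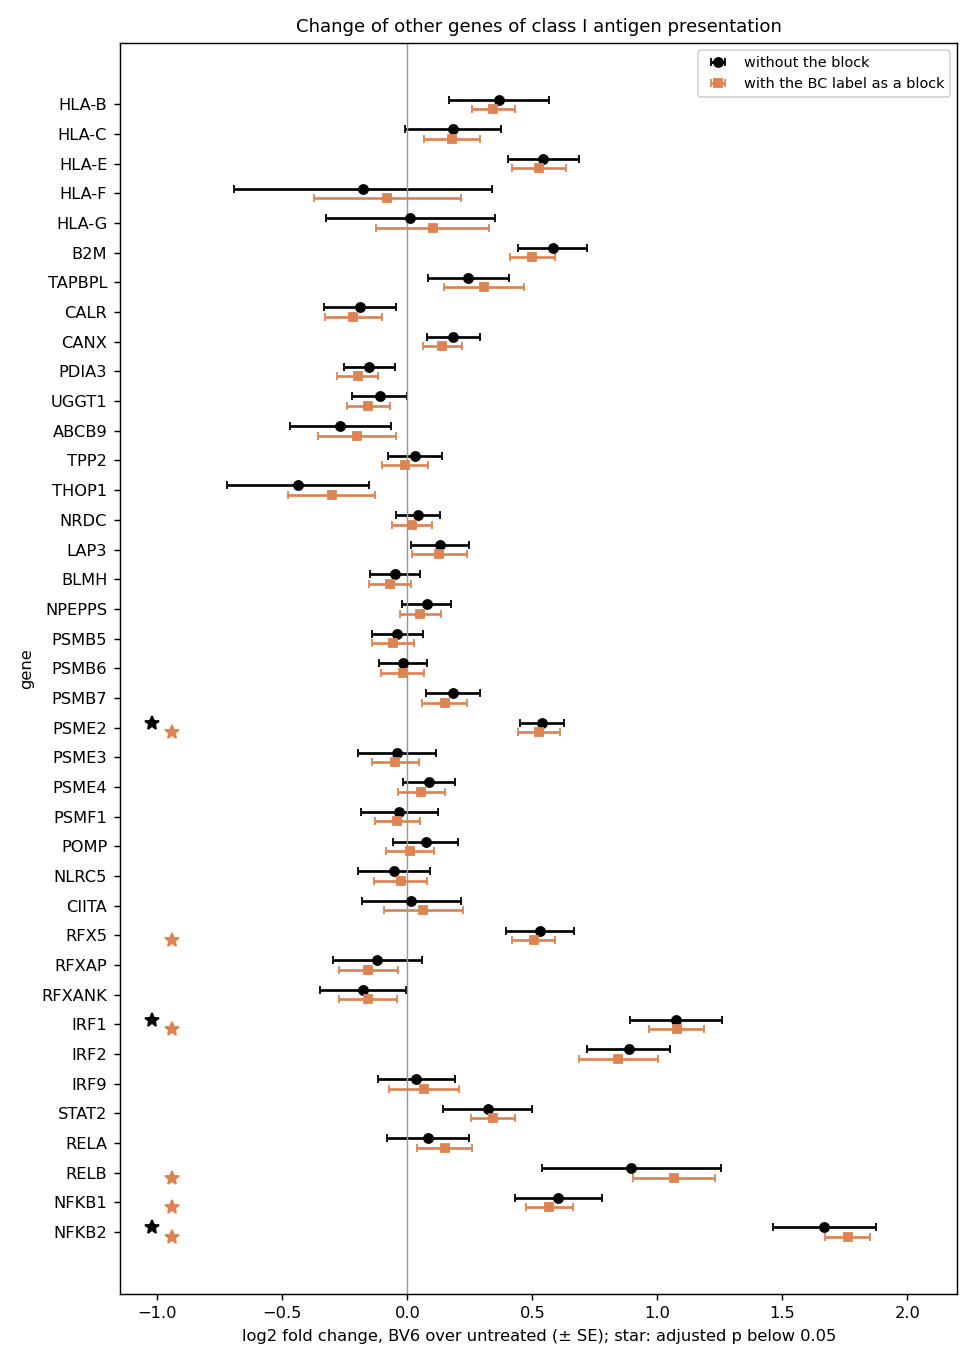
Log2 fold change of BV6 over untreated for tested genes of the wider pathway, with bars of 1 SE, drawn as for the 10 genes. Stars mark PSME2, IRF1 and NFKB2 in both fits and RFX5, RELB and NFKB1 with the block only, and most other genes lie near zero.

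TAP2, PSMB8, TAP1 and PSMB9 lie close together in the class II region of chromosome 6 (GRCh38, with genes placed by GENCODE 44). TAP2 spans chr6:32821833-32838739, PSMB8 chr6:32840717-32844679 and TAP1 chr6:32845209-32853816, all on the minus strand, and PSMB9 chr6:32844136-32859851 on the plus strand. As placed there, PSMB9 encloses all 8608 bases of TAP1, without shared exonic bases, and overlaps 544 bases of PSMB8. From their RefSeq starts TAP1 and PSMB9 are read away from each other. The antisense RNA PSMB8-AS1 on the plus strand shares 672 exonic bases with TAP1 (14.2% of its exons), 602 with PSMB8 (17.3%) and 174 with PSMB9. It had 7.02, 5.58, 6.92 and 8.83 CPM in untreated libraries 1 to 4 and 10.6, 11.2 and 15.3 CPM in BV6 libraries 2 to 4. Its log2 fold change was 0.80 ± 0.19 (SE), with an adjusted p of 0.176 in edgeR and 0.0381 with the block. The kit marks strand, but the sources do not say whether the counting used it, and the share of reads that these genes exchange was not tested. PSMB8 and PSMB9 also share 139 exonic bases, and ERAP1 shares 299 (3.76%) with CAST on the other strand, which had a log2 fold change of 0.13 ± 0.12. PSME1 shares 9 with EMC9, at -0.43 ± 0.18 (adjusted p 0.564). HLA-DOB, on the far side of TAP2, had 0.13 ± 0.27.

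**Figure D5:**
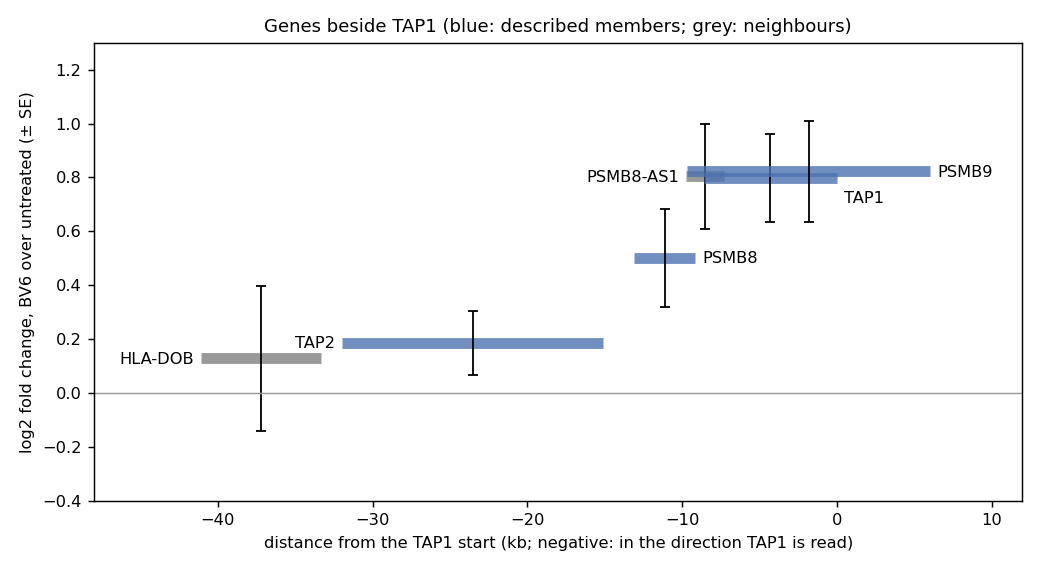
Log2 fold change of the genes beside TAP1 against the distance of the gene body from the TAP1 start in kb. Horizontal bars span the gene, vertical bars give 1 SE, blue genes are among the 10 and grey genes are neighbours. TAP1, PSMB9 and PSMB8-AS1 lie close to 0.80, PSMB8 at 0.50, and TAP2 and HLA-DOB below 0.20.

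Within 50 kb of the 10 genes there were 36 other genes, of which 30 were tested. Only PSME2 passed in edgeR without the block, and PSME2 and PSMB8-AS1 with it. Of all tested genes, 0.394% without the block and 0.649% with it passed and were higher. The median log2 fold change of the 30 was 0.06. No tested neighbour of TAPBP passed. ZBTB22, which ends 121 bases before TAPBP begins, had a log2 fold change of 0.0045 ± 0.20 (SE), and RGL2 on its other side had -0.30 ± 0.15.

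Likeness to TAP1 was measured by Pearson's r of log2 CPM over the 7 libraries, ranked over 23123 genes and given as a description, since treatment and depth are shared by all genes of a library. Outside all lists, the 5 most alike were AL391834.1 (r = 0.996), AC089984.1 (0.992), PSMB8-AS1 (0.991), AVIL (0.987) and MYLK (0.987). AL391834.1 and AC089984.1 were read at under 1 CPM in every library. PSMB8-AS1 shares exonic bases with TAP1, and whether shared reads raise its r was not tested. Of the 10 genes, PSMB9 came nearest with r = 0.916 at rank 105, then TAPBP with 0.902 at rank 141 and PSMB8 with 0.894 at rank 164. TAP2 (0.521), PSMB10 (0.248) and LNPEP (0.0986) were least alike. RFX5 and HLA-E of the wider pathway stood at ranks 17 and 26, with r of 0.967 and 0.960.

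Library totals ranged from 54070030 to 77220882 counts. The 6 markers of rhabdomyosarcoma (among them MYOD1, MYOG and DES) were all present, with sums of 1472 to 2003 CPM in untreated and 1016 to 1724 CPM in BV6 libraries. Of 14 leukocyte markers, 11 stayed below 1 CPM in every library, PTPRC and HLA-DRA among them, and the summed level was 21.5 to 29.8 CPM in untreated and 16.2 to 29.6 CPM in BV6 libraries, most of it CSF1R and NKG7.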

How the data were processed

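The authors made strand-marking libraries of poly(A) RNA, sequenced both ends, aligned the reads to GRCh38 with STAR 2.6.1d and deposited raw counts per gene from a union of the transcripts of each Ensembl gene. How mates, strand and reads on several genes were counted is not given in the sources used here. Groups and BC labels came from the sample labels. The 10 genes and all gene lists were chosen with earlier results of these data known.

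From the deposited counts, R 4.3.3 and edgeR 4.0.16 gave log2 fold changes and p-values (filterByExpr with a minimum count of 10, TMM, glmQLFit and glmQLFTest, condition only, Benjamini-Hochberg over 23124 genes, called below 0.05). Standard errors were derived from the fold change and its F statistic. CPM refer to TMM-normalized library sizes, and log2 CPM used a prior count of 2. The fit was checked on simulated counts with changes larger than any described here and no effect of replicate. That check does not cover changes of the size reported. Library totals of 54070030 to 77220882 counts set the precision, and floors of 3 counts cover counting error only. These totals exceed the reads per library stated in the methods, so both mates of a pair may have been counted and the independent fragments may be fewer, for which halved counts were an alternative.

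Named were all 10 genes with values in every library, every called gene of the wider list with PSMB5, PSMB6, PSMB7, PSME2 and up to 10 others, neighbours within 50 kb that overlap a member, share its promoter or were called, and the 5 genes outside the lists most like TAP1. RFXAP, RFXANK, ZBTB22, RGL2 and HLA-DOB are outside this rule and were chosen after their values were seen. Some genes of the wider list enter its counts but are not reported by name here.

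The pairing was taken from the shared BC label. Deviations from the group means correlated with r = 0.462, 0.438 and 0.0847 for libraries 2, 3 and 4 with all libraries in the means, and with 0.515, 0.322 and 0.197 with the paired libraries only, a choice made after seeing the former. Libraries of different numbers gave -0.437 to 0.278 with all libraries in the means, and -0.352 to 0.132 with the paired ones only. The 0.278 was that of BV6 library 4 with untreated library 1, above the 0.0847 with its own partner. Without the unpaired library every r of a shared label passes 0.1, and with it library 4 does not. The pairing of library 4 is thus not settled, and the fit with the block stands beside the fit without it.

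Alternatives were DESeq2 1.42.0, RLE size factors, 2 other filters, limma-voom (limma 3.58.1), the block, a GC correction, halved counts and leaving out each library. Positions, exon lengths and GC content came from GENCODE 44, in which 36327 of 57189 symbols were found. A GC content was known for 75.5% of the tested genes, which is too few for a check over all genes, and for all 10 genes described. Promoter sequences came from RefSeq, with a window for all 10 genes.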

Additional observations from a re-analysis of the deposited data

How the results depend on the processing

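The count of the 10 genes called rose from 1 to 4 with the DESeq2 Wald test, to 3 with no filter on low counts, to 2 with at least 10 counts in every library, to 3 with the replicate block, to 3 with the GC correction, to 6 with the GC correction and the block, to 2 with counts halved and rounded up and, chosen after seeing the data, to 4 with DESeq2 and the block. Over all genes, those called higher were 242 of 24901 with DESeq2, 169 of 43421 with no filter and 84 of 20155 with at least 10 counts. They were 150 of 23124 with the block, 125 of 17460 with the GC correction and 385 of 17460 with both. With halved counts they were 96 of 20574, and with DESeq2 and the block 267 of 21533. The count of the 10 genes called ranged from 1 to 2 over the 7 fits that left out 1 library each. Of the 180 values of these genes under the alternatives, 158 kept their direction and their side of the threshold, 20 passed the threshold where the reported value did not, 2 reversed and 0 lost a call. Those 2 were LNPEP without untreated library 4 and without BV6 library 2, with a log2 fold change of -0.091 to 0.054 over the fits without 1 library. The cause of these shifts was not tested.

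The wider list had 3 calls, which became 5 with DESeq2, 5 with no filter, 6 with the block, 12 with the GC correction and the block, 9 with DESeq2 and the block, and 0 to 2 without 1 library. The neighbours had 1 call, which became 2 with DESeq2, 2 with the block, and 0 without any 1 library. With the GC correction and the block they had 5, of which 4 were higher and 1 lower. With DESeq2 and the block they had 3, of which 2 were higher and 1 lower. Of all 17460 genes in the fit with the GC correction and the block, 836 were called, 385 of them higher. The log2 fold change of NLRC5 reversed to 0.027 with the GC correction and to 0.017 with that and the block. Without 1 library, signs turned for PSMB5 (range -0.11 to 0.0043, turned without BV6 library 3), PSMB6 (-0.071 to 0.016, without BV6 library 3 or 4), HLA-C (-0.11 to 0.34, without BV6 library 4) and NLRC5 (-0.17 to 0.087, without BV6 library 3). Apart from the genes named with the block in the report and MYLK (adjusted p 0.0938 without and 0.0470 with it), the block changed no call of a described gene.

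Over all genes 104 of 23124 were called, against 218 of 23124 with the block and 242 of 43421 with no filter. DESeq2 called 401 of 24901 genes, and 514 of 21533 with the block. The GC correction called 165 of 17460, and 836 of 17460 with the block. Without 1 library, 38 to 89 genes were called. Of the 104, 91 were higher and 13 lower, against 385 and 451 with the GC correction and the block. With 4 against 3 libraries an exact two-sided permutation test of 1 gene cannot go below 0.057, so none was run. PSMB10, at 3.26 to 7.65 CPM, had the widest standard error of the 10 genes.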
